A study of Homo sapiens with 31 samples.

Results

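The regions described here are the 300 windows of the human genome that held the most EVI1 sites in the untreated inducible MUTZ3 cells. Chromosomes 1 to 22 (hg19) were cut into fixed windows of 100 kb, which gave 28773 windows outside a left-out stretch of chromosome 6 that spans the MHC (chr6:28500001-33500000). An EVI1 site was an interval, merged over both untreated EVI1 peak lists, in which both libraries had a peak. The windows were chosen by their number of EVI1 sites in these lists, with ties taken by chromosome and then by position. Of the 28773 windows, 12126 held at least 1 EVI1 site and 16647 held none. The 300 members held 4086 of 38474 sites (10.6%) on 1.04% of the length. These numbers chose the windows and are a description without a test.

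MUTZ3 is a cell line from an acute myelomonocytic leukemia, in which an inversion of chromosome 3 drives the transcription factor EVI1 (gene MECOM). The cells used to choose the windows carried pCW-4xPLDLS, a lentiviral construct that makes 4 linked copies of the CTBP-binding motif of EVI1 when doxycycline (dox) is given, as a bulk population and not a clone. EVI1 and the corepressor CTBP2 were each mapped by ChIP-seq after double crosslinking in 2 libraries of untreated cells and 2 of dox-treated cells at 72 h, with 1 input for each treatment shared by both antibodies. Beside these 8 lists stood 1 EVI1 and 1 CTBP2 list of unmodified MUTZ3 cells, 2 CTBP2 lists of MUTZ3 cells with retroviral 4xPLASS (the mutated motif, a control), and 1 CTBP2 list of MOLM1, a cell line from a chronic myeloid leukemia in blast crisis, with an inducible shRNA against EVI1 and no dox. The labels do not say that libraries came from separate cultures, so the spread between them may be technical.

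EVI1 is a zinc finger factor of blood stem cells that binds GATA-like and ETS-like DNA sequences, and inverted or translocated chromosome 3 switches it on in a very aggressive leukemia. It carries a short PLDLS motif that CTBP proteins recognise. CTBP1 and CTBP2 bind no DNA themselves and bring histone deacetylases, LSD1 and histone methyltransferases to the factors that hold them. A peptide with the same motif competes for that pocket.

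The lists differed in length, from 6688 and 31310 peaks for the CTBP2 libraries with 4xPLASS to 72214 for the second untreated EVI1 library. The untreated CTBP2 lists held 62232 and 56526 peaks, the dox CTBP2 lists 24588 and 23878, the untreated EVI1 lists 51389 and 72214 and the dox EVI1 lists 53806 and 47599. No read counts were used, so depth is unknown and a shorter list cannot be told apart from a weaker experiment.

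The strongest EVI1 summit outside the untranslated regions of genes is shown for 7 of the 12 densest windows, so that the DNA under the peaks can be read. Each stretch is 101 bases of hg19, plus strand, centred on the summit in the first untreated EVI1 library, and capitals mark every match on either strand to AGATAA (read by GATA factors), to GACAAGATA (read by the first finger domain of EVI1), to GGAAG, an ETS motif, to TGTGGT, a RUNX motif, or to TGACTCA, an AP-1 motif. The sites lie in an intron of LRRC71 (chr1:156896150-156896250), upstream of EGFL7 (chr9:139551388-139551488), in an intron of GSE1 (chr16:85415726-85415826), in an intron of SIGLEC9 (chr19:51631165-51631265), in an intron of ZBTB7B (chr1:154979159-154979259), upstream of RUNX3 (chr1:25349310-25349410) and within PTPN6 (chr12:7062963-7063063). Introns were assigned by the midpoint of the merged site, which can lie outside the stretch shown.
LRRC71 site: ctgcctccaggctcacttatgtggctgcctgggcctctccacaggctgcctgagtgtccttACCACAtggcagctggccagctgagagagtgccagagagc
EGFL7 site: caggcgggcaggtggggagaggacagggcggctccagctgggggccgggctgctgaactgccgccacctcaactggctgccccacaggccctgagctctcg
GSE1 site: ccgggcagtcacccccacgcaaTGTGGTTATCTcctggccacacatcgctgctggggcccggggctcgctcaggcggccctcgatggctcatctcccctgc
SIGLEC9 site: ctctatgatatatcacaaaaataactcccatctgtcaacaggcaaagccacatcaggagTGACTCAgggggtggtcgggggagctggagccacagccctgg
ZBTB7B site: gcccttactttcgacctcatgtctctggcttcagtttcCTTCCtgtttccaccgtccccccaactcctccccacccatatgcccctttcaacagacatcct
RUNX3 site: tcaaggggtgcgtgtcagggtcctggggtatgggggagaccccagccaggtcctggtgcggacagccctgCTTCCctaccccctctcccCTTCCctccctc
PTPN6 site: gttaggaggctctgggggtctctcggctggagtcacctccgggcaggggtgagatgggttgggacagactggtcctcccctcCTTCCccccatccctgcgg
In the GSE1 stretch a RUNX match and a GATA match overlap by 1 base, and the EGFL7 stretch holds none of the 5 motifs.

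Over all EVI1 sites, the 5 motifs stood at similar shares in the dense windows and elsewhere. Within 100 bases on each side of the summit, GGAAG stood at 73.5% of the sites in the dense windows and 73.1% of the sites in the other windows. TGTGGT stood at 18.1% and 18.95%, AGATAA at 8.25% and 8.13%, TGACTCA at 5.26% and 4.90%, and GACAAGATA at 0.245% and 0.288%. In the same dense windows, 118760 stretches of 201 bases that touched no untreated EVI1 peak held GGAAG at a share of 44.7%, TGTGGT at 14.7%, AGATAA at 7.55%, TGACTCA at 3.08% and GACAAGATA at 0.0665%. The median GC content was 58.2% around the summits of the dense windows and 50.7% in the stretches without a peak. A match of letters is a description of the sequence and not of a bound factor.

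The number of sites per member ran from 11 to 23, with a median of 13.0, against a median of 2.0 in the other windows that held a site. At the threshold, 24 windows with 11 sites were taken and 115 windows with 11 sites were not, because ties went to the lower chromosome numbers and the last member lay on chromosome 4. A further 163 windows held 10 sites. Neighbouring sites within a member lay a median of 4096 bp apart, and the sites covered a median of 12.2% of the member.

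**Figure D1:**
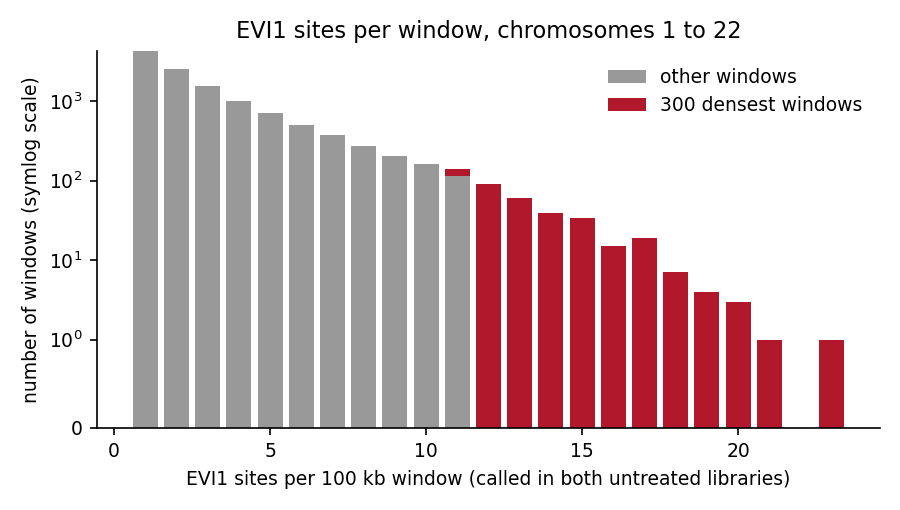
Number of 100 kb windows (y axis, symlog scale) by the number of EVI1 sites they hold (x axis), with the 300 members in red and the other windows with a site in grey. The members begin at 11 sites and end at 23, and the column at 11 sites is split between 24 members and 115 other windows.

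Chromosome 19 held 46 members, which were 7.77% of its windows. Chromosome 1 held 40 (1.60%), chromosome 17 held 22 (2.71%), chromosome 11 held 20 (1.48%) and chromosome 16 held 18 (1.99%). Chromosome 4 held 1 (0.0523%), and chromosomes 13 and 21 held 2 each. Chromosome 19 is known as the most gene-dense of the human chromosomes, and chromosomes 4 and 13 as gene-poor. Of the members, 241 had no member beside them, 25 pairs were adjacent, and 3 runs of 3 adjacent windows occurred.

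The members lay in gene-rich, GC-rich DNA, and most of their EVI1 sites, like most sites elsewhere, lay beyond 1 kb of a gene start. A member held a mean of 3.00 protein-coding transcription start sites (TSS) against 1.28 in the other windows with a site, and the median GC content was 51.9% against 43.1%. Windows with 6 to 11 sites had a median GC content of 49.4% and a median of 2.0 TSS, the same median as the members. No TSS lay in 50 members, and 21 members overlapped no protein-coding gene body. Within 1 kb of a TSS lay 15.6% of the dense sites and 25.3% of the other sites. The median distance to a TSS was nonetheless shorter for the dense sites, at 11393.5 bp against 15324 bp. Introns held 38.4% of the dense sites and 33.0% of the others, intergenic DNA 37.4% and 34.1%, and exons 8.61% and 7.55%. In single members the share of sites within 1 kb of a TSS ran from 0 in 73 members to 76.9%, and it reached at least 50% in 11.

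The EVI1 library of unmodified cells, which took no part in the choice, had more peaks in these windows than elsewhere. It had a mean of 6.75 peaks per member and 0.670 per window outside. Its counts per member ran from 0 to 22 with a median of 7.0, and 141 of the 300 members (47.0%) were also among the 300 densest windows of that list. A single dense site was no more often found in it: 39.4% of the dense sites and 39.0% of the other sites overlapped a peak of unmodified cells. With 1 library this is a comparison of lists, without a replicate check.

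The densest window, chr1:156800001-156900000, held 23 sites and the genes INSRR, PEAR1, a platelet receptor gene, and LRRC71. EVI1 had 24 and 30 peaks there in the untreated libraries and 19 and 15 with dox. CTBP2 had 27 and 16 peaks in the untreated libraries and 7 and 3 with dox. Both dox values of CTBP2 lay below both untreated values, an order found in 57.9% of all windows with an EVI1 site and in 98.3% of the members, so that a single window with this order is described and not singled out. In unmodified cells EVI1 had 4 peaks there and CTBP2 had 3, fewer than the median member in each list.

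The next window, chr9:139500001-139600000, held 21 sites around EGFL7, which encodes a secreted vascular factor, and AGPAT2, an enzyme of phospholipid synthesis. CTBP2 had 43 and 17 peaks there untreated and 8 and 8 with dox. The 43 peaks were the highest count of any member in the first untreated CTBP2 library. EVI1 had 24 and 31 peaks untreated and 24 and 23 with dox, so that the EVI1 ranges touched while the CTBP2 ranges did not overlap.

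Windows at FGR, at GSE1 and at SIGLEC9 held 20 sites each. In chr1:27900001-28000000, with FGR, a SRC-family kinase gene of myeloid cells, IFI6, an interferon-induced gene, and AHDC1, CTBP2 had 30 and 22 peaks untreated and 13 and 10 with dox. In chr16:85400001-85500000, inside GSE1, CTBP2 had 35 and 15 peaks untreated and 8 and 3 with dox. In chr19:51600001-51700000, with SIGLEC7 and SIGLEC9, which encode sialic acid receptors of myeloid and natural killer cells, CTBP2 had 27 and 16 peaks untreated and 9 and 9 with dox. In each of these windows the dox counts lay below the untreated counts.

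The other windows among the 12 densest held 19 or 18 sites. They overlapped ZBTB7B, SHC1, PYGO2 and CKS1B at chr1:154900001-155000000, PML and LOXL1 at chr15:74200001-74300000, NANOS3 at chr19:13900001-14000000, NEK6 at chr9:127000001-127100000, and PTPN6, a phosphatase gene of blood cells, at chr12:7000001-7100000. The window chr1:25300001-25400000 overlapped no protein-coding gene, and its strongest site lay 57575 bp from the start of RUNX3, a RUNX transcription factor gene. At that site the fold enrichment of EVI1 over input was 44.5 and 65.4 in the untreated libraries and 39.9 and 29.6 with dox, and that of CTBP2 was 30.97 and 16.7 untreated and 8.60 and 6.85 with dox. Fold enrichment moves with the depth of library and input, so these values rank sites within a library.

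The remaining window of the 12, chr7:102100001-102200000, lies in duplicated DNA with POLR2J3, RASA4B and SPDYE2. Of its 31-base words, sampled every 50 bases, 83.2% occurred more than once on chromosomes 1 to 22 and X, against a median of 14.2% over the members. EVI1 had 25 and 38 peaks there in the untreated inducible libraries and 2 in unmodified cells. In 11 members more than 50% of the words were repeated, and these had a median of 1 unmodified EVI1 peak, against 7 in the other 289. Their untreated inducible EVI1 medians were 17 and 24 peaks, against 15 and 20. The part that reads placed at several positions play in these counts was not tested.

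When each EVI1 site was given to the nearest protein-coding TSS, a few genes gathered many dense sites. These genes were picked after the counts were seen. RUNX3 had 33 dense sites, SMAD7, the inhibitory SMAD of TGF-beta signalling, had 31, GSE1 had 27 and RXRA, a retinoid receptor gene, had 25. Of the 33 sites nearest RUNX3, 27 had a CTBP2 peak in both untreated libraries, which 76.4% of all EVI1 sites had, and of the 31 CTBP2 sites nearest it 19 had no peak in either dox library. For SMAD7, 16 of 31 CTBP2 sites had no peak in either dox library, and over all CTBP2 sites the share without one was 41.1%. No test was run on these genes.

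The 3 runs of adjacent members stretched over 300 kb each. The run chr16:85300001-85600000 lay in GSE1 and held 44 sites, with 81 and 41 CTBP2 peaks untreated and 16 and 13 with dox. The run chr19:54600001-54900000 held 45 sites and the leukocyte receptor genes LILRB3, LILRB5, LILRB2 and LAIR1 beside RPS9 and CNOT3, with 70 and 43 CTBP2 peaks untreated and 17 and 19 with dox. The run chr11:67000001-67300000 held 43 sites and KDM2A, GRK2, CLCF1 and PPP1CA, with 62 and 43 CTBP2 peaks untreated and 18 and 14 with dox.

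Of the 19047 protein-coding genes on the windows' chromosomes, 901 (4.73%) had their TSS in a member. Of the list of TGF-beta and SMAD pathway genes, 6 of 22 did, among them SMAD3, a signal-carrying SMAD, SMAD6 and SMAD7, inhibitory SMADs, TGFB1, the ligand, and the target gene ID3. Of the blood growth factor receptor genes 3 of 15 did (IL2RA, IL10RA and TNFRSF1A). Of the stem cell surface and adhesion genes 4 of 21 did (CD34, ENG, ADGRG1 and CD52). Cytosolic ribosomal protein genes had 12 of 74 and blood and stem cell transcription factor genes 5 of 39 (RUNX3, HOXA9, LYL1, KLF1 and ZFPM1).
The lymphoid list had 2 of 20 (CD79A and CD79B), the erythroid and megakaryocyte list 2 of 22 (TFRC and KLF1), the CTBP corepressor list 1 of 17 (MTA2, a subunit of the NuRD complex) and the neutrophil and monocyte list 0 of 25. Genes of 1 list can share a window, and no test was run on these counts.

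The windows at CD34, ENG, MTA2 and RPL13A held 17 sites each, the highest count among windows with a listed gene. CD34 is a surface glycoprotein of blood stem cells, and its TSS lies in chr1:208000001-208100000. EVI1 had 19 and 21 peaks untreated, 17 and 19 with dox and 8 in unmodified cells. CTBP2 had 25 and 23 peaks untreated, 8 and 10 with dox, 7 in unmodified cells, 6 and 18 with 4xPLASS and 16 in MOLM1. The CTBP2 groups did not overlap with dox and without it, whereas the EVI1 groups met at 19. Of its 17 CTBP2 sites, 8 had a peak in both dox libraries and 7 in neither, against 38.5% and 41.1% of all CTBP2 sites.

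The windows at SMAD7, HOXA9 and LYL1 showed the same order of CTBP2 counts. At SMAD7 CTBP2 had 23 and 19 peaks untreated and 5 and 6 with dox. EVI1 had 19 and 20 untreated and 17 and 18 with dox, so its dox values there also lay below both untreated values. At HOXA9, a stem cell homeobox gene, CTBP2 had 15 and 14 peaks untreated and 6 and 4 with dox. At LYL1, a helix-loop-helix factor gene of early blood cells, CTBP2 had 27 and 17 peaks untreated and 14 and 10 with dox. The LYL1 window had 22 EVI1 peaks in unmodified cells, the highest of any member.

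At ENG, which encodes a TGF-beta co-receptor of endothelial and stem cells, CTBP2 had 25 and 11 peaks untreated and 6 and 3 with dox. At ADGRG1, an adhesion receptor gene of blood stem cells, EVI1 had 16 and 27 peaks untreated, 21 and 16 with dox and 12 in unmodified cells, and CTBP2 had 23 and 17 untreated and 11 and 10 with dox. The window with RPL13A and FLT3LG, which encodes the ligand of the FLT3 receptor, had 31 and 21 CTBP2 peaks untreated and 10 and 11 with dox.

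The windows of the TGF-beta genes differed in the share of CTBP2 sites kept. At TGFB1 CTBP2 had 18 and 16 peaks untreated and 10 and 9 with dox, and 53.3% and 46.7% of its 15 CTBP2 sites were kept. At SMAD3 the counts were 18 and 15 untreated and 4 and 6 with dox, with 40.0% and 50.0% of 10 sites kept. At SMAD6 they were 21 and 13 untreated and 9 and 11 with dox, with 70.0% and 80.0% of 10 sites kept. At SMAD7 31.2% and 37.5% of 16 sites were kept. The inhibitory SMAD genes thus lay at both ends of this small group, in windows of 10 to 16 sites.

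CTBP2 was called at most EVI1 sites of the dense windows. In the untreated libraries 92.4% and 76.1% of the dense sites overlapped a CTBP2 peak, or 84.2% ± 11.5 (SD, n = 2), against 89.7% and 80.4% of the sites elsewhere. The difference was 2.70 points in the first library and -4.38 points in the second, with a mean of -0.840 ± 5.01 points (SD, n = 2, exact two-sided sign-flip test, p = 1, smallest possible p 0.5). The libraries thus differed in direction, and the difference was smaller than their spread. It was 3.30 ± 1.71 points (SD, n = 2) with windows chosen by unmodified cells and 6.48 ± 3.53 points (SD, n = 2) in the replicate block, in which the peaks of each untreated EVI1 list were set against the CTBP2 list of the same number, both larger than their spread and of the opposite sign, so no direction is read from it. A CTBP2 peak in both untreated libraries stood at 3048 of the 4086 dense sites (74.6%), with 76.4% over all 38474 sites. At 252 dense sites neither library had one.

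In the other CTBP2 lists the dense sites and the rest had shares of similar size. Unmodified cells had a CTBP2 peak at 28.7% of the dense sites and 28.8% of the others. With 4xPLASS the shares were 13.3% and 46.2% at the dense sites and 12.5% and 49.2% at the others, and in MOLM1 58.2% and 60.6%. Beyond 1 kb of a TSS, the first untreated library had a CTBP2 peak at 91.3% of the dense and 86.5% of the other sites, and the second at 75.1% and 77.3%. Within 1 kb of a TSS the shares were 98.0% and 99.0% in the first library and 81.4% and 89.7% in the second.

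CTBP2 peaks in the dense windows were fewer in both dox libraries than in both untreated libraries. The windows held 6298 and 4235 CTBP2 peaks in the untreated libraries and 2032 and 1774 in the dox libraries, a log2 ratio of the means of -1.47 (exact two-sided permutation test, 2 against 2, p = 0.333, the smallest this design allows). Outside the windows there were 53475 and 50445 peaks untreated and 21696 and 21235 with dox, a log2 ratio of -1.28. With all 8 lists cut to the length of the shortest, the log2 ratio in the windows was -0.16, and without the first untreated CTBP2 library it was -1.15.

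**Figure D2:**
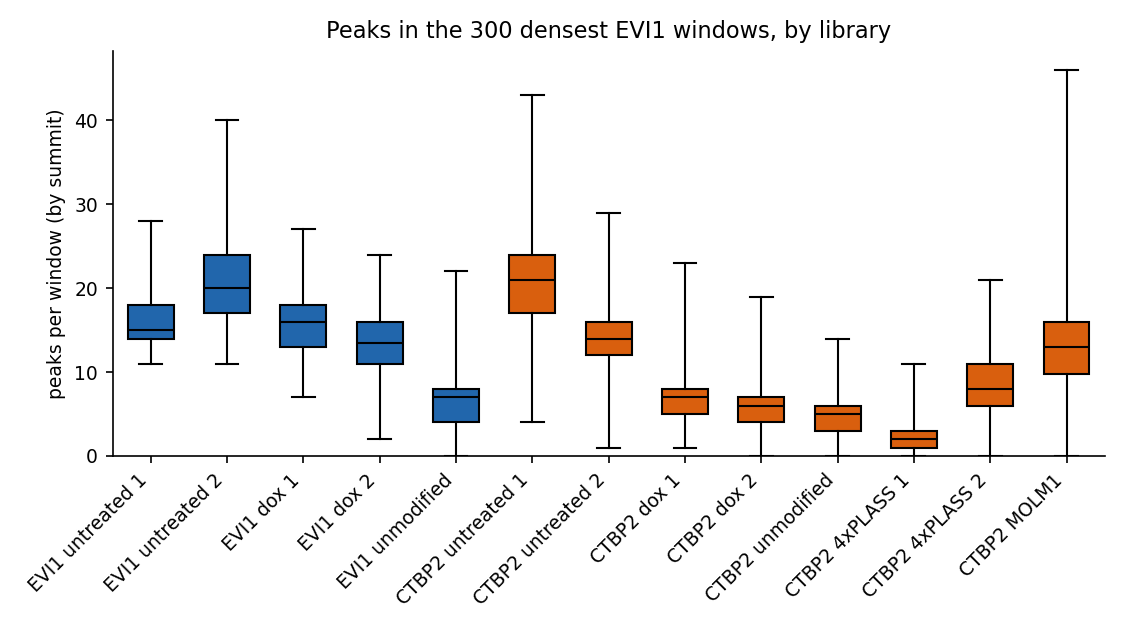
Peaks per member (y axis, counted by summit) in each of the 13 lists, for the 300 members. Boxes span the quartiles, the line is the median and the whiskers reach the lowest and highest member. CTBP2 medians are 21 and 14 untreated and 7 and 6 with dox, and EVI1 medians are 15 and 20 untreated and 16 and 13.5 with dox.

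The lower count with dox was not shown to be larger in size in the dense windows than over the lists as a whole. The windows held 10.5% and 7.75% of the untreated CTBP2 lists and 8.56% and 7.71% of the dox lists, a log2 ratio of -0.17 (exact two-sided permutation test, p = 0.667). The second untreated list lay between the dox lists, and without the first one the ratio was 0.07. EVI1 had 4793 and 6287 peaks in the windows untreated and 4769 and 4107 with dox, a log2 ratio of -0.32 that is given without a test because the untreated lists chose the windows.

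In 295 of the 300 members both dox libraries had fewer CTBP2 peaks than both untreated libraries. That was 98.3% of the members, against 57.9% of the 12126 windows with an EVI1 site and 94.9% of the other windows with 6 to 11 sites. Nothing particular to the members is read from these shares. The other 5 members did not have this order. They were the windows at ZNF565 and ZNF146 (13 and 1 peaks untreated, 1 and 1 with dox), at MYH14 (17 and 1, then 1 and 1), at TTC34 (4 and 27, then 23 and 19) and at RACK1 and TRIM41 (21 and 18, then 18 and 13), and chr13:112900001-113000000, described last. In the first 3 of them over 50% of the 31-base words were repeated in the genome.

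Site by site, under 50% of the CTBP2 sites in the dense windows were still called with dox. A CTBP2 site was an interval with a peak in both untreated CTBP2 libraries, and 3405 of 35909 lay in the members. The first dox library had a peak at 49.9% of them and the second at 44.7%, or 47.3% ± 3.68 (SD, n = 2), against 51.0% and 46.8% elsewhere. Both libraries lacked a peak at 1493 of the dense sites (43.8%), with 41.1% over all CTBP2 sites, and both had one at 1311 (38.5%, with 38.5% over all sites). The difference in kept share between dense and other windows was -1.57 ± 0.671 points (SD, n = 2, exact sign-flip test, p = 0.5, the smallest this design allows). Its sign was opposite in 5 of the 21 alternatives, among them 300 windows chosen by the EVI1 peaks of unmodified cells (6.15 points) and the data without the first untreated CTBP2 library (3.49 points), so no direction is read from it.

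Dense and other sites were also compared within groups of strength. CTBP2 sites were split into 5 equal groups by their mean fold enrichment in the untreated lists. A site that stands higher untreated can lose more before it falls out of a list, so the order of the groups is a description and no result. In the dense windows the strongest group kept a peak at 95.2% and 92.5% of 777 sites in the 2 dox libraries, and the weakest at 14.3% and 10.97% of 720 sites. Elsewhere the strongest group kept 93.4% and 89.9%, and the weakest 18.7% and 16.0%. The groups do not make strength equal: in the strongest, the median fold enrichment untreated was 18.1 and 13.7 in the dense windows and 16.8 and 13.0 elsewhere. In each of the 4 weaker groups the dense sites had a lower kept share in both dox libraries, with mean differences of -2.89 to -5.30 points, and in the strongest group a higher one, with a difference of 2.22 points. With 2 libraries an exact sign-flip test of such a difference gives no p below 0.5. With windows chosen by unmodified cells, the differences were 3.89 points in the strongest group and -1.72 points in the weakest, and 2 of the 4 weaker groups turned positive. Without the first untreated CTBP2 library, they were 4.87 and -1.50 points, and 1 of the 4 weaker groups turned positive. Without the second untreated CTBP2 library, the strongest group was -0.981 and 0.906 points apart in the 2 dox libraries, so no direction is read for it, and the 4 weaker groups were -3.83 to -4.08 points apart.

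CTBP2 sites with no EVI1 site were seldom kept, and their share was lower in the dense windows in both dox libraries. In the dense windows 372 of the 3405 CTBP2 sites overlapped no EVI1 site, and 11.3% and 7.80% of these were kept in the 2 dox libraries, against 18.99% and 19.9% of 5998 such sites elsewhere. The share was lower with more EVI1 sites in the window: 22.3% and 24.4% with 1 to 2 sites, 16.8% and 18.3% with 3 to 5, and 14.2% and 13.4% with 6 to 11. The untreated EVI1 lists set both these groups and the lack of an EVI1 site, so this order is a description without a test. Over the same groups the median fold enrichment of these CTBP2 sites was 5.10, 4.82 and 4.69 in the second untreated CTBP2 library, and 5.41, 5.41 and 5.32 in the first. Over both libraries the dense sites without EVI1 were -9.92 ± 3.14 points apart from those elsewhere (SD, n = 2), and -7.33 points with windows chosen by unmodified cells and -8.54 and -4.15 points without the first or the second untreated CTBP2 library. Their median fold enrichment in the untreated CTBP2 libraries was 5.18 and 4.35, against 5.41 and 5.03 elsewhere, and the part of this gap in the kept share was not tested. Higher peak thresholds and lists of equal size, which turned the sign of the difference over all CTBP2 sites, were not run for the sites without EVI1. CTBP2 sites with an EVI1 site were kept at 54.7% and 49.3% in the dense windows and at 58.3% and 52.8% elsewhere, a difference of -3.59 points. It was -2.57 and -6.45 points without the first or the second untreated CTBP2 library, and turned to 4.99 points with windows chosen by unmodified cells, so no direction is read from it.

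**Figure D3:**
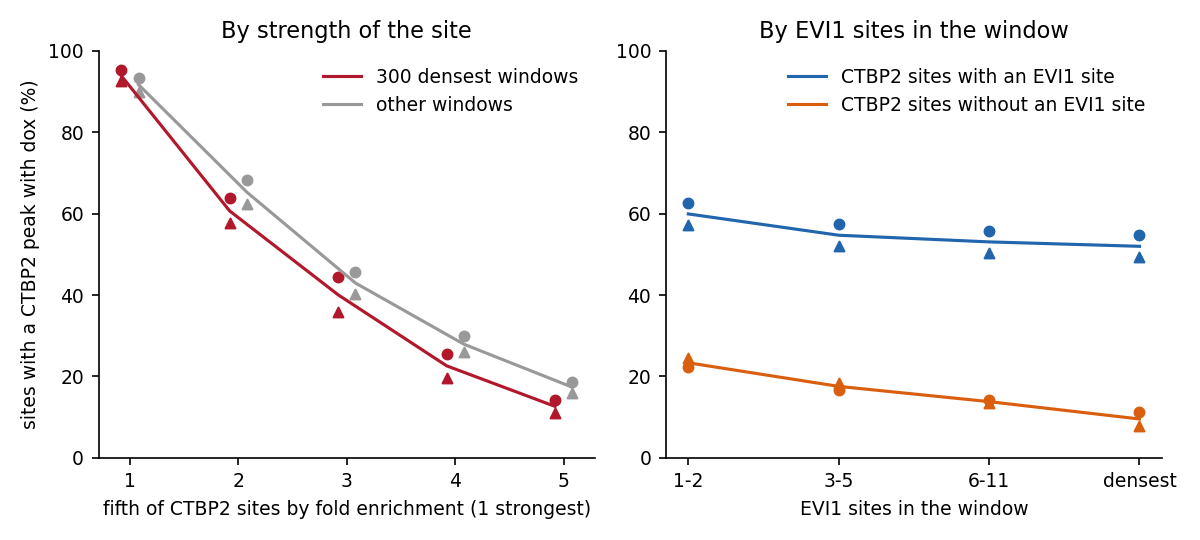
Share of untreated CTBP2 sites that have a CTBP2 peak with dox (y axis, %), by strength of the site (left, 1 is the strongest) and by the number of EVI1 sites in the window (right). Circles are the first dox library, triangles the second and lines their mean. The dense windows go from 93.9% to 12.6% on the left, and sites without EVI1 go from 23.3% to 9.54% on the right.

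At the CTBP2 sites kept in both dox libraries, the median fold enrichment in the dense windows was 13.4 and 10.1 untreated and 5.59 and 5.86 with dox. Elsewhere it was 11.5 and 9.38 untreated and 5.46 and 5.76 with dox. These sites were chosen for a peak in every one of these libraries, and the values are a description within each library, without a test.

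Kept shares differed widely between members. Over the 228 members with at least 10 CTBP2 sites, the mean kept share ran from 10.0% to 81.8% with a median of 46.2%. The lowest were the windows at CACNA1G and EPN3 on chromosome 17 (10.0% in both dox libraries), at CTIF on chromosome 18 (16.7% and 8.33%), at CACNA2D2 on chromosome 3 (9.09% and 18.2%), at ISG15, HES4 and AGRN on chromosome 1 (20.0% and 10.0%) and at RASSF4 on chromosome 10 (18.2% in both). These windows held 10 to 12 CTBP2 sites each, so few sites decide such a share.

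The highest kept share was at chr11:62300001-62400000 with MTA2, EEF1G, a translation elongation factor gene, and GANAB, where 81.8% of 11 CTBP2 sites were kept in both dox libraries. The windows at MAPKAPK2, a stress kinase gene (81.8% and 72.7%), at CYTH4 and RAC2, a small GTPase gene of blood cells (76.9% in both), at SMAD6 (70.0% and 80.0%) and at LCP2, an adaptor gene of blood cell receptors (71.4% and 78.6%), came next. In the MTA2 window CTBP2 had 20 and 16 peaks untreated and 10 and 9 with dox, so its peak count was lower while most of its shared sites were still called. In unmodified cells EVI1 had 7 to 12 peaks in the 5 windows with the highest shares and 0 to 4 in the 5 with the lowest. The median member had 7.0. These windows were picked by their kept shares, and a link between the values was not tested.

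No EVI1 peak of unmodified cells lay in 3 members. In chr7:74900001-75000000, with SPDYE9, SPDYE14 and SPDYE15, 99.2% of the 31-base words were repeated. In chr3:50500001-50600000, with CACNA2D2, 3.95% were repeated, EVI1 had 18 and 22 peaks untreated and 16 and 11 with dox, and unmodified CTBP2 had 3 peaks. The third, chr13:112900001-113000000, overlapped no protein-coding gene and had 35.8% repeated words. It held 18 EVI1 sites, and CTBP2 had 8 and 7 peaks untreated and 13 and 16 with dox, the one member in which both dox counts were above both untreated counts. All 18 EVI1 sites overlapped a CTBP2 peak in both untreated libraries, so the number of peaks does not measure the occupied DNA in this window. Whether wide peaks were split with dox was not tested. Its 6 CTBP2 sites each had a peak in both dox libraries, and MOLM1 had 46 CTBP2 peaks there, the highest of any member in that list.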

How the data were processed

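The data were 13 ChIP-seq peak lists, 1 for each library used. Per the labels and the study's methods, the authors aligned reads to hg19 with Bowtie 1.1.1 and called narrow peaks with MACS2 (2.1.2 in the submitters' notes) against input, with default settings. The deposited lists give a fold enrichment over input (a ratio) and −log10 p and q values for each peak. A deposited score column was not used. The study's read-based comparison of replicates was not repeated, since peak lists hold no counts.

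Lists were merged where peaks shared 1 bp. Peaks were placed in windows by summit and sites by midpoint. Genes came from GENCODE 44 mapped to GRCh37 (20176 protein-coding genes). Groups of 2 libraries were compared by exact permutation of libraries, and differences between windows by an exact sign-flip over libraries. Scripts ran in Python 3.11.15 with pandas 2.3.3 and pysam 0.24.0 and were tested on simulated lists. Alternatives changed the peak threshold, list length, overlap, window grid, window number, the lists that chose the windows and the libraries.

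Named windows were the 12 densest, those with the 5 lowest and 5 highest kept shares among members with at least 10 CTBP2 sites, those with listed genes, runs of 3 or more, and those without unmodified EVI1 peaks. The members, gene lists and this rule were chosen with earlier results of these data known. Some genes that fall under the rule are not reported here.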

Additional observations from a re-analysis of the deposited data

Results flagged for a closer look

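Windows as dense in EVI1 sites also lay in data that the comparisons did not use. On chromosome X, which the choice of windows leaves out, 6 windows held at least 11 EVI1 sites. Of these, 3 held 14 sites each and lay in the stretch shared by X and Y, with CRLF2, CSF2RA, IL3RA (cytokine receptor genes) and P2RY8. No EVI1 peak of unmodified cells was called in these 3, nor in the window at FLNA and RPL10, while the windows at SYP and at ELF4 had 8 and 6. In the left-out stretch of chromosome 6, 1 window held 12 EVI1 sites, at TNF, LTA and LTB, with 0 peaks in unmodified cells. The whole left-out stretch held 138 EVI1 sites and 1 EVI1 peak of unmodified cells, so the 0 is not particular to this window. The part that reads placed at several positions play in these windows of chromosomes X and 6 was not tested.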

How the results depend on the processing

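The lower CTBP2 count and the lower EVI1 count in the dense windows with dox kept their direction in every alternative run, at log2 ratios of -1.73 to -0.16 and of -0.50 to -0.09. For EVI1 this direction is a description only, because the untreated EVI1 lists chose the windows in most alternatives. Its main value of -0.32 had a spread between libraries of 0.32. The smallest values came from lists of equal size, which remove differences in length by construction.

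The kept share, dense minus other, turned to 2.41 points with a −log10 q of at least 5, to 4.96 with a fold enrichment of at least 5, to 3.11 with lists of equal size and to 6.15 with windows chosen by unmodified cells, and ran from -4.17 to 3.49 when 1 library was left out. The share of EVI1 sites with CTBP2 turned to 0.109 points with a fold enrichment of at least 5, to 3.30 with windows chosen by unmodified cells and to 6.48 ± 3.53 (SD, n = 2) in the replicate block, to 1.12 with windows and sites from the first untreated EVI1 library alone, and ran from -4.38 to 2.70 when 1 library was left out. The log2 ratio of the share of the CTBP2 lists turned to 0.0097 with a −log10 q of at least 5, to 0.022 with a fold enrichment of at least 5 and to 0.11 with windows chosen by unmodified cells, and ran from -0.37 to 0.071 when 1 library was left out. The cause was not tested. With 2.5 kb in place of 1 kb, the share of sites near a TSS was -6.44 points apart and not -9.78.

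Replicate numbers name libraries only. Over windows, the difference of replicate 1 from 2 in untreated cells correlated with that in dox cells at 0.11 for CTBP2 and -0.19 for EVI1. In the replicate block the CTBP2 log2 ratio was -1.44, by pair -1.63 and -1.26. Crossed pairs, chosen after seeing the data, gave EVI1 log2 ratios of -0.22 and -0.40, against -0.01 and -0.61 by number. Windows with at least 12 sites, the windows left after those with over 50% repeated words were dropped, and windows off chromosome 19 were also chosen after seeing the data and changed no direction. Depth is unknown, and 2 libraries a group allow no p under 0.333.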
